A study of Mus musculus with 12 samples.

Results

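The measurements described here are the baseline expression profile of primitive mouse blood progenitors that had been cultured and transduced with an empty retroviral vector. They come from 5 of the 12 arrays of the series, chosen by label: those titled as MIB control transduced KLSF cells, replicates 3 to 7. KLSF stands for bone marrow cells sorted as lineage-negative, c-kit+, sca-1+ and Flt3-negative, and MIB for the empty vector. The remaining arrays, 4 of cells given INV16 (the CBFB-MYH11 leukaemia fusion) and 3 of cells given its ACD mutant, were not analysed here. Normal mouse cells were purified by flow cytometry and held for 24 h in DMEM with 10% FBS, stem cell factor (SCF) at 50 ng/ml and interleukin 6 (IL-6) at 5 ng/ml. They were exposed to viral supernatant with polybrene for 4 h and kept in fresh medium for a further 20 h. The cells that had become GFP-positive were then sorted again, and their poly-A RNA was amplified in 2 cycles, labelled with biotin and hybridised to an Affymetrix expression array. Each array stood for its own sort and transduction, per the design text, so the spread between arrays covers those steps too. The labels used here give no strain, sex or age for the animals, and do not say whether animals were pooled. The profile describes GFP-positive cells only, after culture in 2 growth factors, and untransduced or freshly isolated cells were not analysed here.

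As background, the lineage-negative, c-Kit and Sca-1 positive fraction of mouse marrow holds the blood stem cells and the earliest multipotent progenitors. Gain of the receptor Flt3 marks loss of long-term repopulating ability and the step toward lymphoid potential, so its absence enriches for stem cells. SCF signals through the receptor tyrosine kinase c-Kit, and IL-6 through its own receptor chain together with gp130 and JAK-STAT proteins. In culture such cells leave quiescence and divide. Early progenitors are also known to carry low amounts of transcripts from several mature lineages, a state called lineage priming.

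The deposited values are signals of probe sets on a log2 scale, and all levels and differences below are in these log2 units. For each of 18193 genes the probe set whose mean over these 5 arrays was highest was taken. Errors after ± are standard deviations over the 5 arrays (SD, n = 5). The table gives no detection calls, so a reference ceiling was set on each array as the 95th percentile of 79 genes of other tissues, such as albumin (Alb, 4.95 ± 0.11). A gene is called above when it exceeded that ceiling on 5 of 5 arrays, below when it did so on 0 of 5, and mixed otherwise. The ceiling lay between 6.72 and 6.90 over the arrays, with a mean of 6.80. Of all genes 45.8% (8341) were above, 48.9% (8905) below and 5.21% (947) mixed, and these shares are the background for the counts that follow. Some counts are also given under other settings, each with its own background. With the ceiling at the 99th percentile of the reference genes 24.1% of all genes were above, and with all probe sets of a gene averaged 39.0%. Against olfactory receptor genes as the reference 58.8% were, and so were 16 of the 79 genes of other tissues. The 99th percentile ceiling lay between the signals of the 2 highest reference genes, Cela1 and Mbp. Counts under it therefore rest on 2 probe sets, and Mbp fell below the main ceiling's counterpart when its probe sets were averaged. Probe sets differ in how well they bind, so a level describes a probe set's signal, and a gene below the ceiling is not thereby shown to be silent. The ribosomal protein gene Rps16, at 3.87 ± 0.10 beside ribosomal genes near 14, is an example of a probe set with little signal for a transcript that dividing cells need. Of 5497 genes above the ceiling with more than 1 probe set, 3701 had another probe set with a mean under the mean ceiling.

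**Figure D1:**
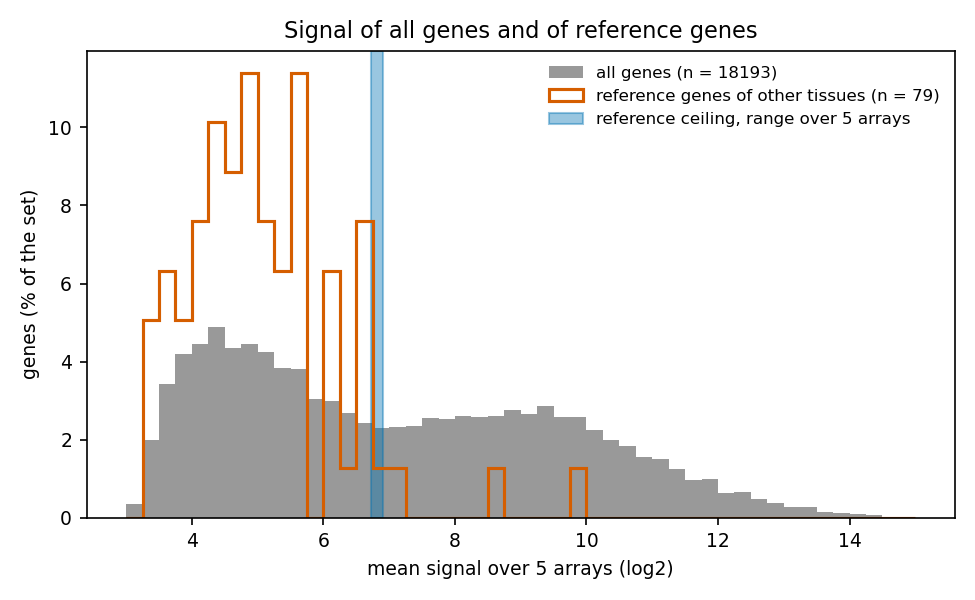
Mean signal over the 5 control arrays (log2, x axis) against the share of genes in each bin (%, y axis), for all 18193 genes (grey) and the 79 reference genes of other tissues (orange outline); the blue band is the range of the reference ceiling over the arrays. The reference genes have a median of 4.97, and only Mbp (9.81) and Cela1 (8.63) among them were above the ceiling on all 5 arrays, while all genes spread from 3.02 to 14.57.

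The arrays were close to one another. Array medians over all probe sets ran from 5.62 to 5.67, and correlations between pairs of arrays across genes, which are not independent replicates, from 0.990 to 0.995. No pair held the same values: the SD of the difference between arrays was 0.245 to 0.365. Some control probe sets set arrays apart. The difference between the bacterial spike-ins BioC and BioB was 1.07 to 1.15 on replicates 3, 4 and 5 but -0.11 and -0.07 on replicates 7 and 6, so that the group holds 2 spike-in sets. On replicate 4 the 3' probe set for 18S ribosomal RNA read 9.74 against 12.63 to 13.06 elsewhere, and the poly-A spike dap 8.0 against 9.78 to 11.62. The 3' minus 5' difference for Gapdh, a measure of transcript integrity, was 1.45, 1.48 and 1.34 on replicates 3 to 5. On replicates 6 and 7 it was 1.64 and 1.76, so that it split without overlap along the spike-in sets. The same difference for Actb did not split that way, at 1.92 on replicate 4 and 1.33 to 1.51 elsewhere. Precision is limited by having 5 arrays.

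The genes above and below the ceiling differed in the letters upstream of their start sites, so example windows are shown before the values. All the examples come from genes above the ceiling. RefSeq promoter sequences (GRCm38.p6) matched 14452 of the 18193 genes by symbol, and CG dinucleotides were counted in the 250 bases before each annotated start, averaged where a gene has several. CG reads the same on both strands. The median was 17 for genes above the ceiling, 13 for mixed genes and 6 for genes below it. Windows with fewer than 5 CG made up 6.34% of those above, 39.7% of those below and 22.5% of all. Windows rich and poor in CG are shown for a cell cycle gene, a regulator and 3 lineage effector genes, each 5′ to 3′ on the gene's strand with every CG in capitals. Pcna (chr2:132253181-132253430, minus strand), the sliding clamp of DNA replication, and Cebpa (chr7:35119043-35119292, plus strand), a transcription factor of granulocyte fate, each hold 22. Mpo (chr11:87793534-87793783, plus strand), myeloperoxidase of neutrophil granules, holds 2. Mcpt8 (chr14:56085198-56085447, minus strand), a basophil protease, holds 0, and Pf4 (chr5:90772185-90772434, plus strand), platelet factor 4, holds 1.
Pcna: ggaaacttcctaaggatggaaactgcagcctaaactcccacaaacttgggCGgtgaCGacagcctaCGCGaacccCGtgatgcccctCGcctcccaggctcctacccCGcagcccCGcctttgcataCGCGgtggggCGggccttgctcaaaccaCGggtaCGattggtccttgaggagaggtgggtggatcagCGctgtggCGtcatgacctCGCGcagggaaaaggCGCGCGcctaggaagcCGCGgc
Cebpa: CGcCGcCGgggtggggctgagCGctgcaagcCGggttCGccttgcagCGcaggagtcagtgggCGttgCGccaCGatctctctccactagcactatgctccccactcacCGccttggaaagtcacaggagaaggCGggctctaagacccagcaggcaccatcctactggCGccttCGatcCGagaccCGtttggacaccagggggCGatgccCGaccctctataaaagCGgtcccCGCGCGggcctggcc
Mpo: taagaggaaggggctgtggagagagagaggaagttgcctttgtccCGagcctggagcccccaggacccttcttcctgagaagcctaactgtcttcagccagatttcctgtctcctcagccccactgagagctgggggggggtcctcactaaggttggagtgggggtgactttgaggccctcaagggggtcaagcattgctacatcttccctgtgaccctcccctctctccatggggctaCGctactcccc
Mcpt8: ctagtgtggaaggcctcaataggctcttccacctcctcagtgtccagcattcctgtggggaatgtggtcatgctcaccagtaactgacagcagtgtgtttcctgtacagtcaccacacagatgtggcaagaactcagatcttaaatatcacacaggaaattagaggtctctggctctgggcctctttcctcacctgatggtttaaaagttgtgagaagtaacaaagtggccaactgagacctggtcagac
Pf4: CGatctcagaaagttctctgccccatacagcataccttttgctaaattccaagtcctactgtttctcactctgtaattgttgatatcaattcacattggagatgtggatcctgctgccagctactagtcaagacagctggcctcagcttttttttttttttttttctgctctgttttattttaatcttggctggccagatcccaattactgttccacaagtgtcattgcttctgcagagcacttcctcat
These 5 genes were picked from those above the ceiling, so their calls do not bear on CG and signal. Of all matched genes above it, 437 (6.34%) had windows with fewer than 5 CG. Among the gene lists described below, 0 of 25 matched core regulators, 0 of 19 G2 and mitosis genes and 1 of 23 S phase genes had fewer than 5 CG. In the lineage lists the same held for 17 of 19 neutrophil, 17 of 22 mast cell, basophil and eosinophil, 13 of 18 megakaryocyte and 12 of 17 monocyte genes, and for 11 of 18 T and NK, 6 of 11 dendritic, 7 of 13 B, 8 of 18 erythroid and 7 of 16 lymphoid priming genes. Restricted to members above the ceiling, the count was 8 of 10 for neutrophil, 6 of 9 for mast cell, 6 of 8 for megakaryocyte and 6 of 7 for monocyte genes, but 2 of 6 for erythroid, 0 of 8 for lymphoid priming, 0 of 2 for dendritic and 1 of 2 for T and NK genes. Counts of letters are a description of these windows and say nothing of what binds there.

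The sorted phenotype could be read in part from the RNA. Kit, which encodes c-Kit, read 11.43, 11.14, 10.83, 10.82 and 11.15 on replicates 3 to 7, a mean of 11.08 ± 0.26. Cd34, a sialomucin of early blood and vessel cells, read 12.04, 11.58, 11.85, 11.69 and 11.60 (11.75 ± 0.19). Both were above the ceiling everywhere, and their arrays lay within 0.61 and 0.47 of each other. Another Kit probe set had a mean of 7.57, also above the mean ceiling. Ly6a, which encodes Sca-1, was not analysed here. Hoxa9, a homeobox gene of stem cells and myeloid leukaemia, read 12.57, 12.53, 12.42, 12.16 and 12 (12.34 ± 0.25), with its other probe set at 7.88. Gata2, a zinc finger factor needed for stem cell maintenance and for mast cells, read 10.26, 10.47, 10.38, 10.29 and 11.26 (10.53 ± 0.42), so that replicate 7 stood apart from the other 4 arrays. The 4 measured markers of this population were thus all above the ceiling.

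Flt3 signal lay above the reference ceiling although the cells had been sorted as Flt3-negative. It read 9.34, 8.34, 8.50, 8.57 and 8.39 (8.63 ± 0.41), above the ceiling of each array, with replicate 3 highest and the other 4 arrays within 0.24. The gene was read by 1 probe set. At the 99th percentile ceiling (8.71 to 8.98) it was mixed, with replicate 3 alone above. The array reads RNA of cultured cells and the sort read surface protein before culture, and their relation was not tested. Of the other surface genes used to divide this compartment, Cd48, a marker of multipotent progenitors rather than stem cells, read 10.23, 10.55, 11.24, 10.97 and 9.61 (10.52 ± 0.64) and Cd27 8.91 ± 0.23. Slamf1, which encodes the stem cell antigen CD150, read 5.27, 6.20, 5.95, 6.51 and 6.68 (6.12 ± 0.55). Thy1, carried at a low level on mouse stem cells, read 5.34, 6.41, 6.42, 6.55 and 6.53 (6.25 ± 0.51). Slamf1 and Thy1 were below the ceiling on all 5 arrays, with replicate 3 lowest for both. In bulk RNA, fewer cells with a transcript and less of it per cell cannot be told apart. Antigens of mature cells, of the kind used to deplete lineage-positive cells, were mostly below: 7 of 10 were below, 2 mixed and 1 above, with a median level of 4.63 against 6.63 over all genes. Against olfactory receptor genes 4 were above. The member above the ceiling was Cd14, a co-receptor for lipopolysaccharide on monocytes (7.99 ± 0.53). The T cell genes Cd3e (6.86 ± 0.08) and Cd8a (6.83 ± 0.16) lay at the ceiling, while Cd3d (4.86 ± 0.07), Cd4 (6.11 ± 0.06) and the B cell gene Ms4a1 (3.84 ± 0.11) lay below it.

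**Figure D2:**
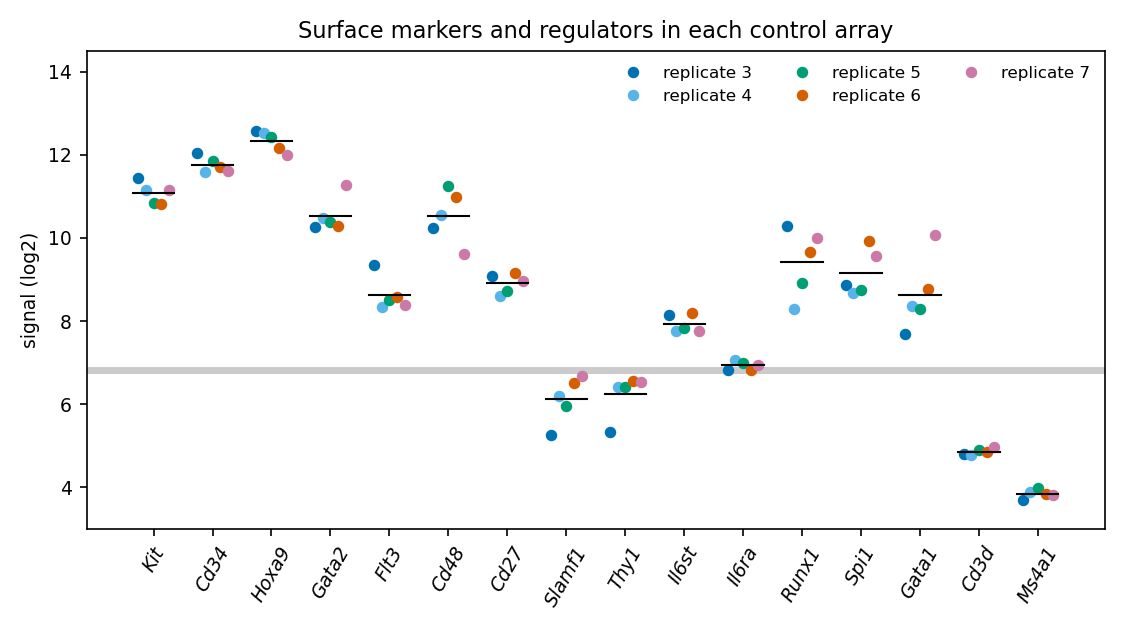
Signal (log2, y axis) of sort markers, population markers, receptors, regulators and lymphoid antigens on each of the 5 control arrays; points are arrays, coloured by replicate, black bars are means and the grey band is the range of the reference ceiling. Kit, Cd34, Hoxa9 and Gata2 lie far above the band, Flt3 also lies above it on every array, and Slamf1, Thy1, Cd3d and Ms4a1 lie under it.

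Transcription factors of early haematopoiesis formed the regulator list with the largest share above the ceiling. Of 33 core regulators 31 were above, 1 was mixed and 1 below, and their median level was 10.12. The top members were Mycn (13.84 ± 0.19), a MYC family proto-oncogene, Lmo2 (12.98 ± 0.16), the bridging subunit of the stem cell LIM complex, and Myb (12.59 ± 0.20), which sustains progenitor proliferation. Cbfb, the subunit that stabilises RUNX proteins on DNA, followed at 12.42 ± 0.19. The lymphoid zinc finger factor Ikzf1 read 11.79 ± 0.14, the ETS repressor Etv6 11.35 ± 0.09, the Polycomb gene Bmi1 11.24 ± 0.18 and Myc 11.05 ± 0.13. The spread of the list was wider than usual, with a median SD of 0.30 over its members with a mean above the ceiling against 0.198 over all such genes. Runx1 and Sox4 had the largest SDs of its members. Runx1, the DNA-binding partner of Cbfb, read 10.29, 8.30, 8.91, 9.65 and 9.99 (9.43 ± 0.81), a range of 1.99. Sox4, a factor of progenitor survival, read 11.60, 11.47, 10.94, 10.03 and 9.97 (10.80 ± 0.77), highest on replicates 3 and 4 and lowest on 6 and 7. The E protein inhibitor Id3 was the only core member below the ceiling, at 4.79, 4.96, 6.34, 6.04 and 5.03 (5.43 ± 0.71). Its relative Id2 was mixed, with 4 of 5 arrays above the ceiling (7.16 ± 0.34). With the ceiling at the 99th percentile of the reference genes (8.71 to 8.98), where 24.1% of all genes were above, 21 of the list were.

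The Hox clusters gave a contrasting picture, since few of their genes gave signal above the ceiling. Of 32 Hox, Meis and Pbx genes 7 were above, 1 was mixed and 24 were below. After Hoxa9 came its cofactor Meis1, at 10.15, 9.72, 9.86, 10.03 and 10.53 (10.06 ± 0.31), with other probe sets at 9.13 and 7.17. Pbx3 (8.15 ± 0.23), Hoxa7 (8.14 ± 0.24), Hoxa5 (8.01 ± 0.18), Pbx2 (7.72 ± 0.17) and Hoxb4 (7.52 ± 0.17), a gene used to expand stem cells in culture, completed the genes above. Hoxc9 straddled the ceiling (6.92 ± 0.14, above on 4 of 5 arrays). Hoxa10 (5.96 ± 0.26), a neighbour of Hoxa9, and Hoxb5 (4.62 ± 0.26), a label of long-term stem cells, were below. At the 99th percentile ceiling only Hoxa9 and Meis1 remained of the 7, and against olfactory receptor genes as the reference 12 were above.

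Factors that commit cells to a lineage were split. Of 31, 13 were above, 5 mixed and 13 below, close to the background of all genes. Those above included Runx3 (10.19 ± 0.33), a factor of T and NK cells among others, the C/EBP family members Cebpg (10.03 ± 0.18) and Cebpa (9.45 ± 0.34), Spi1 and Gfi1. Spi1, which encodes the myeloid and B cell factor PU.1, read 8.86, 8.67, 8.75, 9.93 and 9.57 (9.15 ± 0.56), higher on replicates 6 and 7 than on the other 3 arrays. Gata1, the factor of red cells, megakaryocytes and mast cells, read 7.68, 8.35, 8.29, 8.78 and 10.08 (8.64 ± 0.90). The highest and lowest Gata1 arrays, replicates 7 and 3, were 2.40 apart. The granulocyte repressor Gfi1 (8.72 ± 0.53), the granulocyte and inflammatory factor Cebpb (8.11 ± 0.52) and the monocyte and dendritic factor Irf8 (7.67 ± 0.57) were above as well. Klf1, the erythroid Krüppel-like factor, exceeded the ceiling on replicate 7 alone (7.31 against 6.40 to 6.68 elsewhere). Among the 13 below were the B cell factors Pax5 (5.74 ± 0.15) and Ebf1 (4.01 ± 0.14) and the T cell factor Gata3 (5.08 ± 0.20), whereas other factors with roles in lymphocytes, Runx3 among them, were above. When all probe sets of a gene were averaged, 8 of the fate factors were above, and with the 99th percentile ceiling 3 were.

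Genes named for long-term stem cells were largely present. Of 31, 23 were above, 4 mixed and 4 below, with a median level of 8.38. Ifitm1 (13.71 ± 0.10) and Ifitm3 (12.86 ± 0.25), interferon-inducible membrane proteins, gave signals near the top of the range, as did Mycn. Adgrg1 (10.91 ± 0.45), an adhesion receptor also called GPR56, the drug efflux pump Abcg2 (10.55 ± 0.11) that gives the side population, and the factor Hlf (10.45 ± 0.26) were also above on each array. Hmga2, a chromatin protein of fetal stem cells, read 10.15, 10.53, 10.55, 9.18 and 9.47 (9.98 ± 0.62), lower on replicates 6 and 7. Several genes used to mark the most quiescent stem cells sat at the ceiling. The angiopoietin receptor Tek (6.96 ± 0.38) and the CDK inhibitor Cdkn1c, or p57 (6.89 ± 0.42), each exceeded it on 3 of 5 arrays. Vwf, von Willebrand factor of platelet-biased stem cells, read 5.58, 5.44, 5.08, 6.37 and 7.74 (6.04 ± 1.06) and exceeded it on replicate 7 alone. The channel Trpc6 (5.85 ± 0.80) did so on replicate 7 alone too. Robo4 (5.38 ± 0.21), a receptor of endothelium and stem cells, was below, as were Slamf1 and Hoxb5. Averaging probe sets left 17 of the list above and the 99th percentile ceiling 11.

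Most genes of the pathways that answer the 2 added growth factors were above the ceiling. Of 26 genes of SCF and IL-6 signalling 24 were above and 2 below, while 19 were above with averaged probe sets and 13 at the 99th percentile ceiling. Besides Kit, the list was led by the kinase Pim1 (11.12 ± 0.32), a STAT target, and the phosphatases Ptpn11, or SHP2 (11.12 ± 0.14), and Ptpn6, or SHP1 (10.66 ± 0.30). The kinases Jak1 (10.32 ± 0.36) and Jak2 (10.08 ± 0.17) and the feedback inhibitor Socs3 (9.84 ± 0.21), which acts on gp130, were also above. The chains of the IL-6 receptor itself lay nearer the ceiling. Il6ra, its ligand-binding chain, read 6.83, 7.07, 6.98, 6.83 and 6.95 (6.93 ± 0.10), no more than 0.32 over the ceiling of its array. Il6st, which encodes gp130, read 8.14, 7.77, 7.84, 8.19 and 7.76 (7.94 ± 0.21), but its other 3 probe sets had means from 4.00 to 6.03. Averaged over its 4 probe sets Il6st fell below the ceiling, and both genes were below the 99th percentile ceiling. Socs1 (5.25 ± 0.13) and Socs2 (5.51 ± 0.30), feedback inhibitors of cytokine receptors, were the 2 genes below. Il6ra and Il6st were chosen after their values were seen.

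Receptors for other growth factors were present for several branches at the same time. Of 44 cytokine receptors 28 were above, 4 mixed and 12 below. Csf2rb, the shared beta chain for IL-3, IL-5 and GM-CSF, read 11.11, 10.61, 10.81, 11.13 and 11.66 (11.06 ± 0.40), and its paralogue Csf2rb2, specific for IL-3 in the mouse, 9.70 ± 0.81 with replicate 7 highest at 11.04. The 2 genes are close relatives, and how far the probe sets separate them was not tested. Of the ligand-binding alpha chains that pair with them, Csf2ra was mixed (6.92 ± 0.31), and Il3ra (6.22 ± 0.34) and Il5ra (4.45 ± 0.08) were below. The TGF-beta receptors Tgfbr1 (10.11 ± 0.35) and Tgfbr2 (10.09 ± 0.10) and the IL-1 receptor Il1r1 (9.85 ± 0.32), whose ligand acts on stem cells in inflammation, were above on every array. Csf3r, the G-CSF receptor, read 9.32, 9.41, 9.30, 9.86 and 9.06 (9.39 ± 0.29). Csf1r, the receptor of the macrophage growth factor, read 9.11, 8.86, 9.28, 10.45 and 8.32 (9.20 ± 0.78), highest on replicate 6 and lowest on replicate 7. Epor, the erythropoietin receptor, was above (7.39 ± 0.42) with little to spare on replicate 3, at 6.73 against a ceiling of 6.72. Ifngr2 (7.26 ± 0.55) and Met (7.35 ± 0.62) were each above on 4 of 5 arrays, with replicate 7 under the ceiling. Il7r, the receptor of early lymphocytes, was below everywhere (4.39 ± 0.30). The count above was 20 with averaged probe sets and 13 at the 99th percentile ceiling.

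Adhesion and homing receptors were above the ceiling more often (58.6%) than all genes (45.8%), and no surface protein or binding was measured. Of 29, 17 were above, 1 mixed and 11 below. Spn, or CD43 (11.95 ± 0.13), Selplg, the P-selectin ligand (11.20 ± 0.33), the hyaluronan receptor Cd44 (10.99 ± 0.16), and the integrin Itga6 (10.98 ± 0.10) had the highest levels in the list, and the integrin Itga4 (9.64 ± 0.14) was above as well. At the 99th percentile ceiling 8 of the list were above, close to the 24.1% of all genes above under that setting. Ccr2, the receptor that draws monocytes out of marrow, read 11.22, 10.85, 10.47, 10.80 and 9.53 (10.57 ± 0.64). Itga2b, or CD41, read 9.35, 9.55, 9.29, 9.69 and 10.83 (9.74 ± 0.63), and its partner Itgb3 9.09, 8.83, 8.72, 9.27 and 10.30 (9.24 ± 0.63). Replicate 7 was the lowest array for Ccr2 and the highest for both integrins, which pair as the fibrinogen receptor of platelets. Pecam1, found on endothelium and stem cells, was above on 3 of 5 arrays (6.78 ± 0.29), and the lymphocyte homing receptors Ccr7 (4.29 ± 0.09) and Ccr9 (4.30 ± 0.22) were below. Of 20 Notch, Wnt and Hedgehog receptors 8 were above, 2 mixed and 10 below. The Hedgehog receptor Ptch1 read 10.77, 11.01, 10.13, 9.86 and 9.73 (10.30 ± 0.56), and its signalling partner Smo 9.28 ± 0.11. Notch2 (9.54 ± 0.40) and Notch1 (8.52 ± 0.16) were above, whereas Notch3 (4.67 ± 0.15) and Notch4 (4.48 ± 0.16) were below. Fzd6, a frizzled receptor, was above (8.70 ± 0.24), but its other probe sets were at or under 5.21. Only 3 of these receptors were above when probe sets were averaged, and 3 at the 99th percentile ceiling.

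**Figure D3:**
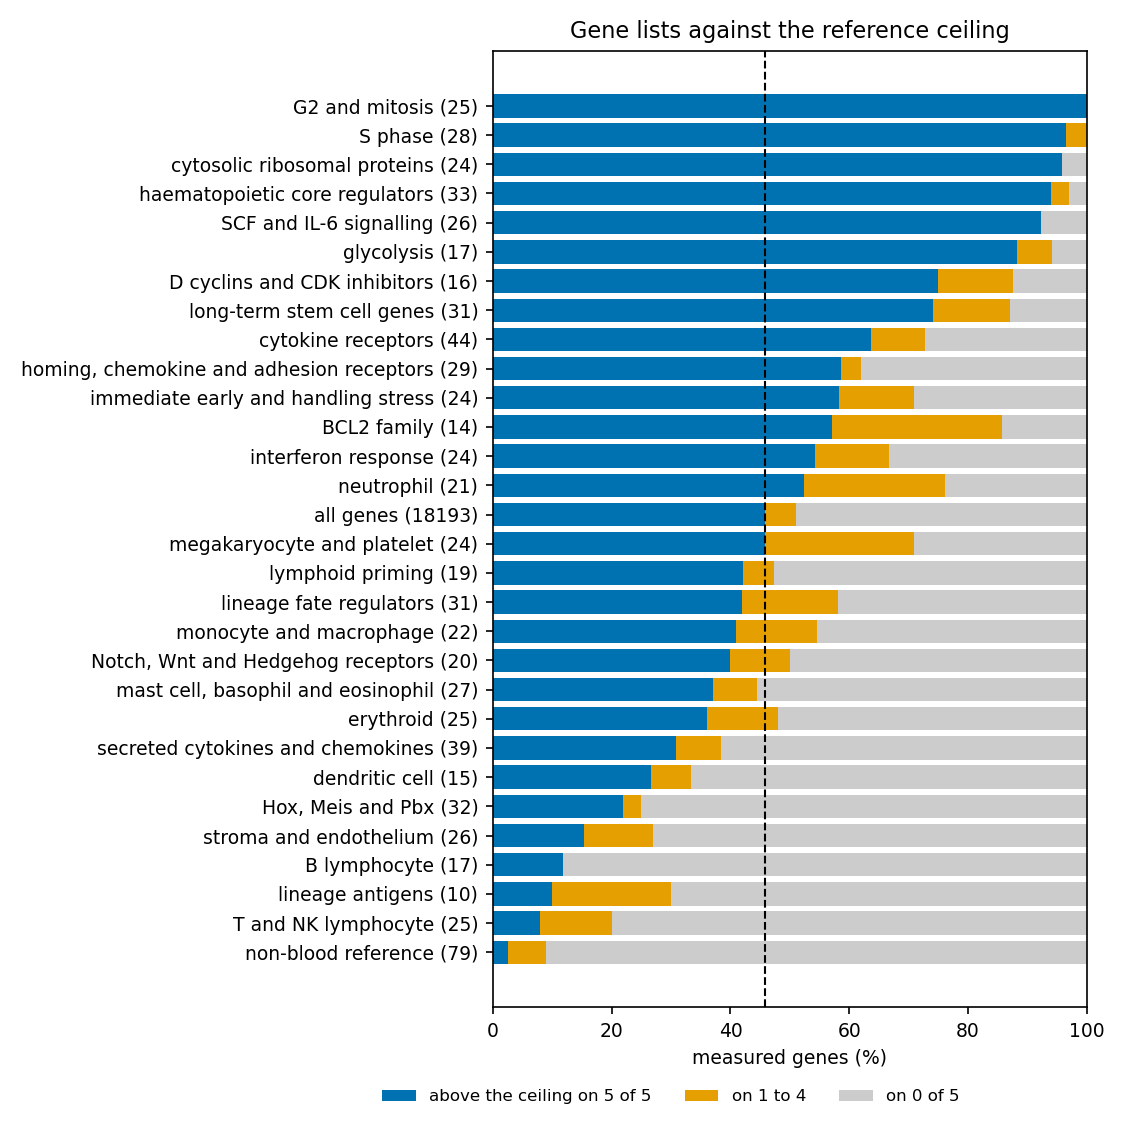
Share of measured genes (%, x axis) in each gene list that were above the reference ceiling on 5 of 5 arrays (blue), on 1 to 4 (orange) or on 0 (grey), with the number of measured genes in brackets; the dashed line marks the share of all genes above. Cell cycle, ribosomal, core regulator and growth factor signalling lists stand at the top (25 of 25 G2 and mitosis genes), and lymphocyte lists at the bottom (2 of 25 T and NK genes).

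Among the lineage lists, that of neutrophil genes held the highest probe set signals. Of 21 neutrophil genes 11 were above, 5 mixed and 5 below. Mpo, whose upstream window is shown above, read 13.42, 13.52, 13.19, 13.97 and 13.21 (13.46 ± 0.32), at percentile 99.5 of the 18193 genes. The granule proteases Prtn3 (13.42 ± 0.28) and Ctsg (13.26 ± 0.31) and the granulocyte progenitor gene Ms4a3 (12.46 ± 0.36) were likewise far above the ceiling. Mpo, Prtn3 and Ctsg are genes of the azurophil granules, which form early in granulocyte development. Elane, the neutrophil elastase of the same granules, read 7.84, 8.47, 7.59, 9.75 and 8.25 (8.38 ± 0.84) and was chosen after its values were seen. Ncf1, a subunit of the NADPH oxidase, read 10.93 ± 0.41 and the lysozyme Lyz2 10.31 ± 0.75. The granule genes lactoferrin (Ltf, 4.95 ± 0.38) and cathelicidin (Camp, 5.89 ± 0.37) were below on all 5 arrays, whereas Lcn2, Ngp and Mmp8, given next, were mixed. Several other members were highest on replicate 6. Lcn2, lipocalin 2, read 6.71, 7.06, 7.14, 9.20 and 6.63, S100a9, a calcium-binding alarmin, 5.23, 6.59, 6.58, 8.51 and 5.44, and its partner S100a8 6.97, 8.42, 8.72, 10.28 and 7.34. Ngp, Mmp8 and Cybb, a granule protein, a collagenase and the catalytic subunit of the oxidase, were also highest on replicate 6, at 7.31, 7.79 and 8.57. S100a8 was above the ceiling on all 5 arrays. On replicate 6 Lcn2, S100a9, Ngp, Mmp8 and Cybb were above it too, and on replicate 7 none of those 5 was.

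Monocyte genes were above the ceiling about as often as all genes. Of 22, 9 were above, 3 mixed and 10 below, and at the 99th percentile ceiling 4 were above. The C-type lectins Clec4e (10.93 ± 0.34) and Clec4d (10.91 ± 0.30), the protease Ctss (10.47 ± 0.26), Ccr2, Csf1r and the membrane gene Ms4a6c (8.64 ± 0.75) were above. Lgals3, galectin 3, read 6.72, 8.46, 7.80, 9.70 and 7.96 (8.13 ± 1.09). Adgre1, the macrophage antigen F4/80 (6.65 ± 0.34), and Ly86 (6.15 ± 0.83) were mixed. The receptors Mrc1 (4.68 ± 0.19) and Marco (4.69 ± 0.14) and the complement gene C1qa (4.90 ± 0.10), genes of tissue macrophages, were below everywhere. Dendritic cell genes were mostly below (10 of 15), with 4 above and 1 mixed, and 1 above at the 99th percentile ceiling. Those above included Tcf4 (9.67 ± 0.19), a factor of plasmacytoid cells that progenitors also express, and Flt3. The class II chain H2-Ab1 was above (8.34 ± 0.38), while H2-Aa exceeded the ceiling on replicate 7 alone (6.30 ± 0.59) and the invariant chain Cd74 (6.42 ± 0.21) was below. Ciita, the class II transactivator (5.06 ± 0.16), and Siglech (5.57 ± 0.07), a plasmacytoid marker, were below as well.

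Part of the erythroid list was above the ceiling. Of 25, 9 were above, 3 mixed and 13 below. Cd24a (12.69 ± 0.23), the transferrin receptor Tfrc (12.50 ± 0.24), carbonic anhydrase Car2 (12.18 ± 0.28) and the nuclear protein Hemgn (10.47 ± 0.37) gave high signals, but these are genes of dividing and early cells as well as of red cells. The globin genes measured, Hba-a1 (4.07 ± 0.12) and the embryonic Hbb-bh1 (5.14 ± 0.11), the haem enzyme Alas2 (4.08 ± 0.16) and the anion exchanger Slc4a1 (4.37 ± 0.11) were below on all arrays. Ank1, ankyrin of the red cell membrane, exceeded the ceiling on 4 of 5 arrays (6.96 ± 0.20). Against olfactory receptor genes 15 of the list were above, close to the 58.8% of all genes above under that setting. The megakaryocyte list had the widest spread of the lineage lists, with a median SD of 0.48 against 0.164 over all genes, although over members with a mean above the ceiling the monocyte list (0.55) exceeded it (0.50). Of 24, 11 were above, 6 mixed and 7 below. The thrombin receptor F2r (12.42 ± 0.38), the platelet protein Plek (11.28 ± 0.39), the factor Nfe2 (10.71 ± 0.52) and P-selectin (Selp, 9.30 ± 0.32) were above on every array. Pf4 read 9.25, 9.93, 9.63, 9.68 and 12.10 (10.12 ± 1.13), so that replicate 7 was 2.17 over the next array. The von Willebrand receptor subunits Gp1bb (6.32 ± 1.28) and Gp5 (7.03 ± 0.58), the chemokine Ppbp (6.08 ± 1.16) and Rab27b (6.78 ± 0.88) were mixed, each with its highest value on replicate 7. In contrast to the platelet genes Pf4, Plek and Selp, the platelet tubulin Tubb1 (4.59 ± 0.22) and the platelet receptors Gp6 (4.54 ± 0.09) and P2ry12 (4.09 ± 0.11) were below on all 5 arrays, replicate 7 included. At the 99th percentile ceiling 6 of the list were above.

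A subset of mast cell and basophil genes was above the ceiling. Of 27, 10 were above, 2 mixed and 15 below, and 3 were above at the 99th percentile ceiling. Cpa3, mast cell carboxypeptidase, read 9.60, 10.30, 9.75, 9.59 and 11.00 (10.05 ± 0.61), and Mcpt8 9.70, 9.96, 9.83, 9.89 and 10.24 (9.92 ± 0.20). Hdc, which makes histamine (8.89 ± 0.43), and Fcer1g, the shared gamma chain of Fc receptors (8.57 ± 0.38), were above. Ms4a2, the beta chain of the IgE receptor, read 7.76, 9.09, 8.73, 8.34 and 10.34 (8.85 ± 0.97), while its alpha chain Fcer1a was below on all arrays (5.07 ± 0.39). The chymase Cma1 was below too (4.82 ± 0.25), and the mast cell factor Mitf straddled the ceiling (6.81 ± 0.23). Gzmb, a granzyme listed here and among NK genes, read 5.77, 8.25, 6.54, 6.41 and 9.70 (7.33 ± 1.61), the largest range of any gene named here, with replicates 4 and 7 above the ceiling and the rest below.

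The B and the T and NK lymphocyte lists had the smallest shares above the ceiling among the lineage lists. Of 17 B lymphocyte genes 2 were above and 15 below, and of 25 T and NK genes 2 were above, 3 mixed and 20 below. Against olfactory receptor genes 4 and 6 of them were above. The B members above were Ighm (8.27 ± 0.24), the IgM heavy chain, and Cd79b (7.64 ± 0.46), while the partner chain Cd79a was below (5.05 ± 0.14). The T and NK members above were the granule gene Nkg7 (10.68 ± 0.24) and the kinase Zap70 (7.99 ± 0.09), with the CD3 chain Cd3d below. The recombinase genes Rag1 (3.37 ± 0.10) and Rag2 (5.30 ± 0.14) were below, and Dntt, which adds untemplated bases to receptor genes, straddled the ceiling (6.84 ± 0.47). The list of lymphoid priming had 8 of 19 above, 1 mixed and 10 below, with 5 above with averaged probe sets and 2 at the 99th percentile ceiling. Its members above included Ikzf1, Cd27, Flt3 and the chromatin organiser Satb1, which read 9.18, 8.76, 8.87, 8.67 and 7.51 (8.60 ± 0.64). Ighm and Zap70 fell below the ceiling when their probe sets were averaged, and only Nkg7 of the 4 lymphocyte genes above held at the 99th percentile ceiling. Markers of stroma and endothelium, cells that could have been carried along, were below for 19 of 26, mixed for 3 and above for 4 (8 against olfactory receptor genes, 2 with averaged probe sets and 1 at the 99th percentile ceiling). Col4a1 (9.27 ± 0.13), a basement membrane collagen, and Pdgfrb (8.10 ± 0.39) gave the highest signals. The defining stromal genes Col1a1 (4.46 ± 0.10), Col3a1 (3.53 ± 0.10), Cxcl12 (5.18 ± 0.22) and Lepr (4.44 ± 0.21) were all below.

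Proliferation genes were present nearly without exception and with little spread. All 25 measured G2 and mitosis genes and 27 of 28 S phase genes were above the ceiling, with median levels of 10.59 and 11.07. Pcna read 13.72, 13.71, 13.67, 13.48 and 13.44 (13.60 ± 0.13), and the helicase subunit Mcm7 13.52 ± 0.09. Mki67, the proliferation antigen, read 13.07, 13.05, 12.91, 12.83 and 12.80 (12.93 ± 0.12). The topoisomerase Top2a (12.41 ± 0.10) and the mitotic kinase Cdk1 (11.68 ± 0.07) were as steady. Thymidylate synthase, Tyms, was the S phase gene that was mixed (6.47 ± 0.28, above on replicate 3 alone). The S phase activator E2f1 was above with a lower signal (8.70 ± 0.32). The median SD in the lists was 0.16 for S phase and 0.14 for G2 and mitosis, and at the 99th percentile ceiling 26 and 23 of them were still above. Of 16 cyclin D pathway genes 12 were above, 2 mixed and 2 below, with 6 above at the 99th percentile ceiling. The kinases Cdk6 (12.70 ± 0.31) and Cdk4 (12.21 ± 0.19) and the cyclin Ccnd2 (11.73 ± 0.21) led, and Ccnd1 read 9.76, 8.74, 8.59, 8.12 and 8.55 (8.75 ± 0.61). The p21 inhibitor Cdkn1a was above (9.62 ± 0.38), p27 (Cdkn1b, 6.87 ± 0.38) was above on 4 of 5 arrays, and the senescence locus genes Cdkn2a (3.97 ± 0.10) and Cdkn2b (5.57 ± 0.13) were below. Signals of the inhibitors of quiescent cells, p27 and p57, thus lay at the ceiling while those of the cyclin D kinases lay far above it.

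The 5 highest mean signals came from genes of protein synthesis. The elongation factor Eef1a1 (14.57 ± 0.04) ranked at the top, followed by Rpsa (14.54 ± 0.04), Rpl41 (14.49 ± 0.13), Rps3 (14.49 ± 0.03) and Rps2 (14.46 ± 0.05). Of 24 cytosolic ribosomal protein genes 23 were above, with a median level of 13.97 and a median SD of 0.065. In glycolysis 15 of 17 genes were above, 1 mixed and 1 below. Pgk1 (13.57 ± 0.03) and Ldha (13.50 ± 0.08), phosphoglycerate kinase and lactate dehydrogenase A, led, and the neuronal enolase Eno2 was below (4.53 ± 0.09).

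Genes that report on handling and on inflammatory signals were partly present. Of 24 immediate early and stress genes 14 were above, 3 mixed and 7 below, with 6 above at the 99th percentile ceiling. The chaperone Hspa8 (14.11 ± 0.10), present in all growing cells, was highest, and Ier3 read 10.48 ± 0.54. Fos (8.66 ± 0.35) and Egr1 (7.71 ± 0.70), which rise within minutes of stimulation, were above, but Jun (5.98 ± 0.27), Atf3 (4.84 ± 0.28) and Fosb (3.82 ± 0.15) were below. Of 24 interferon response genes 13 were above, 3 mixed and 8 below, with 4 above at the 99th percentile ceiling. Ifi35 (11.18 ± 0.23) and the factor Irf1 (10.26 ± 0.16) were above, whereas the strongly inducible antiviral genes Ifit1 (4.53 ± 0.34), Ifit3 (5.31 ± 0.06) and Mx1 (3.81 ± 0.18) and the factor Irf7 (5.82 ± 0.27) were below. Rtp4, a chaperone-like induced gene, varied more, at 7.27, 7.11, 9.43, 7.30 and 7.84 (7.79 ± 0.96). It fell below the ceiling when its 2 probe sets were averaged. Few secreted factors had signal. Of 39 cytokine and chemokine genes 12 were above, 3 mixed and 24 below, and the stricter ceiling left 3 above. The chemokine Ccl9 (11.24 ± 0.26) and Angpt1 (10.92 ± 0.31), the ligand of Tek, led, followed by Pf4 and Tgfb1, and Tnf read 7.55 ± 0.09. Il1b (6.13 ± 0.11) and Il3 (4.14 ± 0.18) were below, and Ccl3 exceeded the ceiling on replicate 7 alone, at 8.02. In the BCL2 family 8 of 14 were above, 4 mixed and 2 below, and the stricter ceiling left 3 above. The survival genes Mcl1 (12.01 ± 0.06), Bcl2 (10.40 ± 0.24) and Bcl2l1 (9.0 ± 0.24) were above, the p53 target Pmaip1 read 8.45, 8.56, 7.60, 7.79 and 6.73 (7.83 ± 0.74), and Bik was below (5.73 ± 0.06). Averaged over its 4 probe sets Bcl2l1 was below too.

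The spread between arrays was small for most genes. Over 8805 genes with a mean above the mean ceiling, the median SD was 0.198, the interquartile range ran from 0.137 to 0.281, and the 95th percentile was 0.445. Only 280 of these genes (3.18%) had an SD over 0.5, and 12 had one over 1. The SD fell with the level, from a median of 0.212 for means up to 8 to 0.0918 for means over 13. The steadiest genes were the mannosyltransferase Alg9 (8.41, 8.39, 8.40, 8.40 and 8.40), the nuclear protein gene Pcnp (12.05 ± 0.01), the cyclin Ccnl2 (10.36 ± 0.02), the tubulin Tuba4a (14.27 ± 0.02) and the splicing gene Snrpg (13.78 ± 0.02). Alg9 fell below the ceiling when its 2 probe sets were averaged. The genes with the largest spread among those above on all 5 arrays included effectors of single lineages and of metabolism. S100a8 had an SD of 1.30, and Saa3, an acute phase protein of myeloid cells, one of 1.26 (7.36, 8.91, 9.13, 10.65 and 7.94). Pf4 (1.13), the fatty acid desaturase Scd1 (1.10, at 7.07, 9.33, 7.33, 8.44 and 9.45) and the actin-severing protein Scin (1.08, at 11.57, 11.24, 10.09, 9.71 and 12.32) followed. Ms4a2, the protease inhibitor Slpi, Rtp4, the kinase Gsk3b and the peptidase Thop1 had SDs from 0.92 to 0.97. Slpi was highest on replicate 6 (12.35 against 9.79 to 10.96), Gsk3b on replicate 3 (10.72 against 8.18 to 9.83) and Thop1 on replicate 6 (9.82 against 7.55 to 9.60). Of these 10 genes 4 were highest on replicate 6 and 4 on replicate 7.

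**Figure D4:**
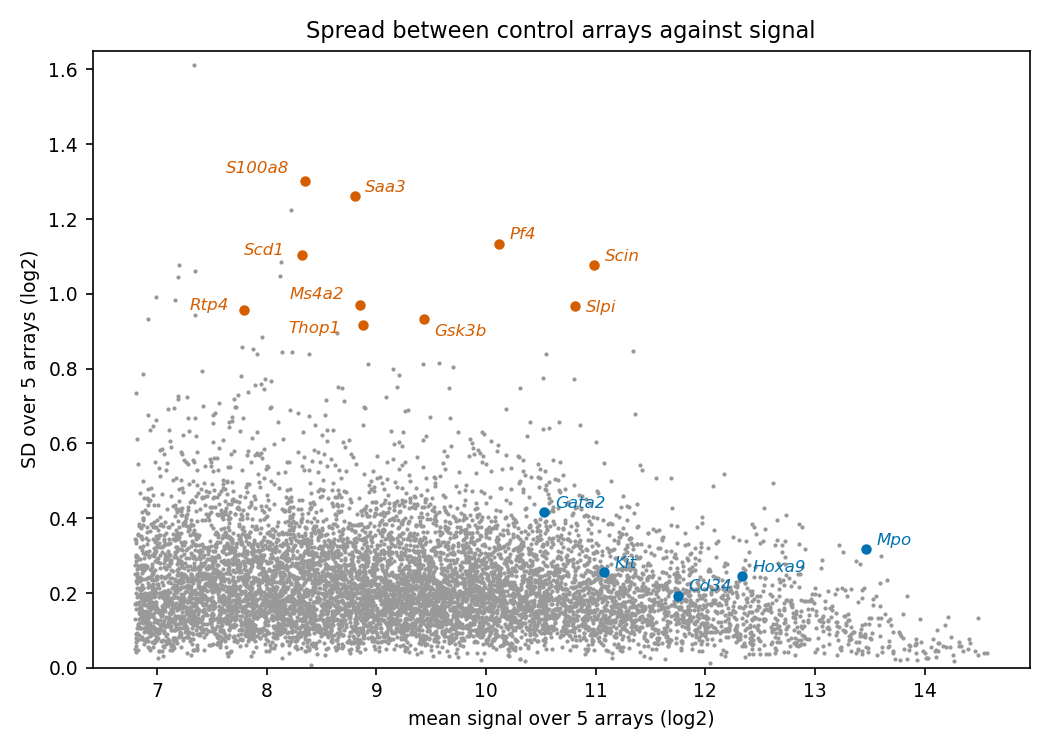
SD over the 5 control arrays (log2, y axis) against mean signal (log2, x axis) for the 8805 genes with a mean above the mean ceiling; each point is a gene. The 10 genes with the largest SD among those above on all arrays are named in orange and markers in blue. Most points lie under 0.5, Kit, Cd34, Hoxa9 and Gata2 at 0.19 to 0.42, and S100a8, Saa3 and Pf4 over 1.1.

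Single arrays differed from the others across members of lineage lists. Replicate 6 gave the highest of the 5 values for 18 of 21 neutrophil genes, where 18.8% of all genes had their highest value on that array, and the list's median deviation from the 5-array mean was 0.53. It was also the highest array for 11 of 22 monocyte genes. Replicate 7 was highest for 18 of 24 megakaryocyte genes, 16 of 25 erythroid genes, 14 of 27 mast cell, basophil and eosinophil genes and 19 of 31 long-term stem cell genes, against 22.4% of all genes. Its median deviation was 0.66 for the megakaryocyte list and 0.33 for the stem cell list. Replicate 7 was at the same time the lowest array for 10 of 21 neutrophil and 9 of 22 monocyte genes, against 20.1% of all genes. Replicate 5 was highest for 16 of 24 interferon response genes, against 19.8% of all genes, with a median deviation of 0.26. Rtp4 led this group, and Usp18 (7.27 against 5.65 to 6.73) and Oasl2 (6.99 against 5.88 to 6.52), 2 further induced genes, exceeded the ceiling on that array alone. Replicate 3 gave the lowest value for 33.0% of all genes, and for 14 of 25 erythroid and 14 of 27 mast cell, basophil and eosinophil genes. The same held for 14 of 25 T and NK genes, 13 of 26 stroma and endothelium genes and 39 of the 79 reference genes of other tissues. Low values on replicate 3 were therefore not particular to the erythroid and mast cell lists. Lists overlap: Gata1 stands among erythroid, mast cell and fate genes, and Vwf among stem cell, megakaryocyte and endothelial genes. The lists on which the arrays differ share libraries and are not independent, so these counts describe 5 cell preparations. Under quantile normalisation, with averaged probe sets or without any other array, the neutrophil count stayed at 18 or 19 and the megakaryocyte count likewise. Leaving out another array cannot lower such a count, so only the change of normalisation or of probe sets could have done so. Whether differences in cell make-up, culture, handling or RNA integrity moved with these counts was not tested.

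**Figure D5:**
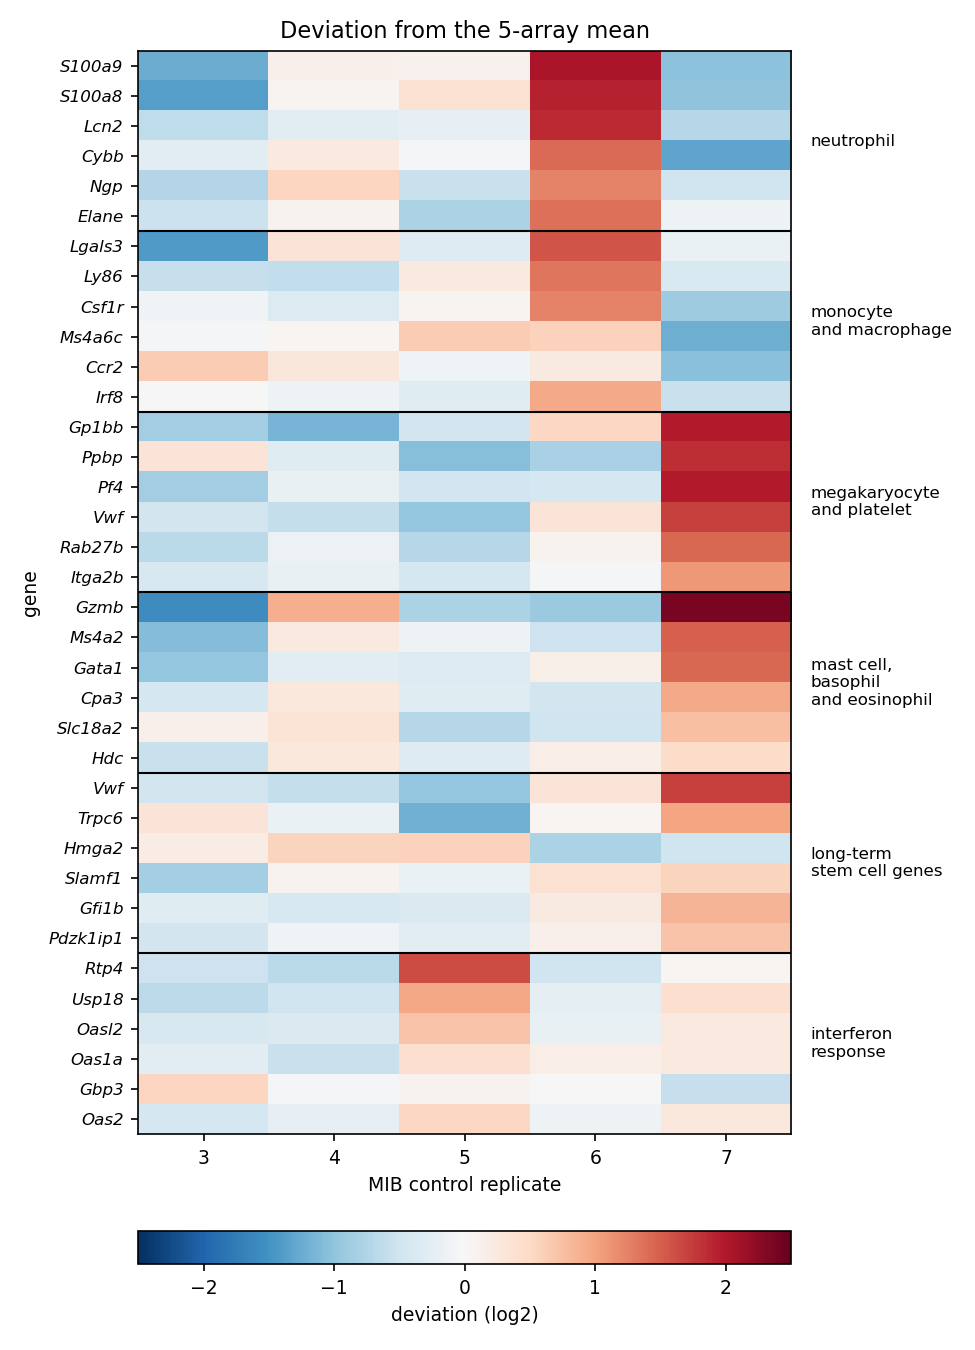
Deviation of each gene from its 5-array mean (log2, colour scale from blue, lower, to red, higher) on MIB control replicates 3 to 7 (columns), for the 6 members with the largest spread in each of 6 lists (rows, list names at the right). The neutrophil genes and 4 of the 6 monocyte genes are reddest on replicate 6 (not Ms4a6c and Ccr2), megakaryocyte, mast cell and most stem cell genes on replicate 7, and Rtp4, Usp18 and Oasl2 on replicate 5.

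The spread was set against the 2 spike-in sets, replicates 3 to 5 and replicates 6 and 7, with a two-sided limma test. At a Benjamini-Hochberg adjusted p under 0.05 it called 0.0% (0) of 8805 genes, while 2238 had an unadjusted p under 0.05. That is a larger share than the 0.05 such a threshold gives on average when no gene differs, and genes on the same arrays are not independent. Deviations from the 5-array mean, over genes above the ceiling, correlated at 0.35 between replicates 6 and 7. In the other pairs of arrays the correlation ran from -0.60 to 0.13. The smallest adjusted p belonged to Tgfb1, the gene of transforming growth factor beta 1. It read 7.98, 8.05 and 8.04 on replicates 3 to 5 and 9.26 and 9.39 on replicates 6 and 7, a difference of 1.30 (SE 0.118, limma adjusted p = 0.0539), with no overlap between the sets. Next came the corepressor Tle5 (1.25), the RNA-binding protein Rbm38 (1.52), the kinase Smg1 of nonsense-mediated decay (-1.13) and the fucose transporter Slc35c1 (1.19), each with a limma adjusted p of 0.0683. Spi1 and Sox4, described above, also separated by these sets without overlap, Spi1 higher and Sox4 lower on replicates 6 and 7. They were not alone in this: Hoxa9, Hmga2, Ptch1, Pcna and Mki67 were likewise lower on both of those arrays than on the rest. The share of all genes without overlap was not counted, so such a separation does not single out a gene. The median deviations of the neutrophil list were -0.25, 0.06 and -0.09 on replicates 3 to 5 and 0.53 and -0.33 on replicates 6 and 7, so that the sets overlapped. Those of the megakaryocyte list were -0.23, -0.17 and -0.28 on replicates 3 to 5 and 0.01 and 0.66 on replicates 6 and 7. Here the sets did not overlap, and the part of the set in that pattern was not tested. Without replicate 3 the test called 1 gene, Hnrnpl, an RNA-binding protein named after its values were seen (difference 2.43, limma adjusted p = 0.0125). These counts do not show that the sets are alike.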

How the data were processed

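The authors deposited 1 table of log2 signals for 45101 probe sets; the log base was inferred from their range, and background correction, normalisation and summarisation are not given in the sources used here. RNA was amplified in 2 cycles and labelled with biotin, per the labels' protocols. Of the probe sets, 34958 had 1 gene symbol in the platform annotation, 932 several and 9211 none. Of the 34958, 34754 had an Entrez identifier in RefSeq. The array holds 64 control probe sets, and 34945 of the 34958 were used once the controls among them were left out. The deposited log2 values were used unchanged. Calls, SDs and deviations were computed per gene over the 5 arrays, and the spike-in sets (BioC minus BioB above or below 0.5) were compared with limma 3.58.1 in R 4.3.3, two-sided, Benjamini-Hochberg adjusted, after checks on simulated data. Alternatives covered the ceiling, the reference genes, normalisation, probe set choice and leaving out each array.

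The 31 gene lists (767 symbols, 688 measured) and the members were chosen with earlier results of these data known. The text names the markers, the 10 largest and 5 smallest SDs among genes above, and 5 genes of the spike-in fit. Of the 15 highest means it names the first 5 and Tuba4a. In each list it draws on up to 8 members of highest mean, the mixed members, up to 6 below and up to 3 of largest SD. Il6ra, Il6st, Elane and Hnrnpl fall outside this rule. Per-sample columns of other series numbered 0, and the 7 arrays of the other groups were not used. Ly6a was not analysed here.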

Additional observations from a re-analysis of the deposited data

Results flagged for a closer look

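In 287 series of 5 array values, chiefly the levels of the 248 named genes, the highest or lowest array was set against Dixon's 95% critical value of 0.71, the gap to the nearest array as a share of the whole range. Of these, 19 exceeded it, 17 of them levels of genes; chance alone gives about 1 in 20.

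Replicate 7 stood apart above the other 4 arrays for Gata2 (11.26 against 10.26 to 10.47), Itga2b (10.83 against 9.29 to 9.69), Pf4 (12.10 against 9.25 to 9.93), Fcer1a (5.74 against 4.79 to 5.04) and Hoxb5 (5.08 against 4.42 to 4.61), and below them for Clec4d (10.39 against 10.98 to 11.11). Gata2, Itga2b, Pf4 and Fcer1a are genes of the mast cell and megakaryocyte branches, and Fcer1a and Hoxb5 remained under the reference ceiling even there.

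Replicate 3 was highest for Flt3 (9.34 against 8.34 to 8.57) and Lmo2 (13.25 against 12.87 to 12.94). It was lowest for Thy1 (5.34 against 6.41 to 6.55), Il7r (3.86 against 4.46 to 4.60), Ank1 (6.61 against 6.98 to 7.11) and Cela1 (8.37 against 8.64 to 8.74).

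Replicate 6 was highest for Lcn2 (9.20 against 6.63 to 7.14) and Csf2ra (7.47 against 6.70 to 6.88). Replicate 5 was highest for Ifit1 (5.11 against 4.24 to 4.44) and Rag1 (3.55 against 3.30 to 3.34), both under the ceiling, and lowest for Hoxb4 (7.22 against 7.54 to 7.67). Replicate 4 was lowest for the 3' probe set of 18S ribosomal RNA (9.74 against 12.63 to 13.06), and its median deviation in the Hox, Meis and Pbx list was highest (0.0715 against -0.04 to -0.01).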

How the results depend on the processing

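Of 18193 genes, 8341 (45.85%) were above the reference ceiling as reported. A ceiling at the 99th percentile of the reference genes, from 8.71 to 8.98 over the arrays, left 4381 (24.08%), and the calls of 163 of the 248 named genes were as reported, with 21 turned from above to below. The other settings kept the count within 1.5 times: 8786 with the 90th percentile, 10695 against 39 olfactory receptor genes (ceiling 5.41 to 5.74), 8341 after quantile normalisation, 7103 with averaged probe sets, 8591 with 4 of 5 arrays required, and 8440 by limma against the ceiling. Leaving out single arrays gave 8364 to 8426. Since ceilings and probe sets were kept, neither that setting nor the one with 4 of 5 arrays could lower the count. Of the named genes, 201 kept their call against olfactory receptors (4 reversed), 207 with averaged probe sets (8 reversed) and 238 to 248 without single arrays. In the last case only mixed calls could change, so a reversal was not possible.

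The median SD of 0.198 was 0.164 over all genes without a filter, and 0.183 to 0.208 without single arrays. The comparison of spike-in sets called 0 to 1 genes when single arrays were left out, the 1 call coming without replicate 3, and 0 under quantile normalisation, averaged probe sets or no filter on low values. No paired analysis was possible because a single group of arrays was used. Calls near the ceiling rest on the reference genes chosen, and signals of dim probe sets set no bound on RNA.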
